A study of Triticum aestivum with 9 samples.

Results

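Soluble starch synthases lengthen the glucose chains of amylopectin, the branched polymer that makes up most of the starch of a wheat grain. The genes described here encode 2 of these enzymes, SSI and SSIIa. SSI adds glucose mainly to the shortest chains, SSIIa extends these to intermediate length, and wheat grains that lack SSIIa store starch rich in amylose. Both enzymes work in the plastids of the developing endosperm and are also found bound inside starch granules, and soluble starch synthase activity in wheat endosperm is known to be sensitive to heat.

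Bread wheat is a hexaploid, and each enzyme is encoded by 1 gene in each of the A, B and D subgenomes, called homoeologs, which together form a triad. The 6 genes were chosen by identifier and not by their measured values, though earlier results of these data were known. They are SSI-7A (TraesCS7A02G120300), SSI-7B (TraesCS7B02G018600), SSI-7D (TraesCS7D02G117800), SSIIa-7A (TraesCS7A02G189000), SSIIa-7B (TraesCS7B02G093800) and SSIIa-7D (TraesCS7D02G190100). They make up 6 of the 107891 genes in the deposited tables, with 8 of the 133744 transcripts. The names of the copies were supplied with the list of identifiers, and the tables themselves hold identifiers only, so neither the names nor the grain tissue could be checked against marker genes.

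All plants were of the cultivar Chinese Spring. They were moved to growth chambers 12 days after flowering and kept at 20 °C for 3 days. After this, 1 group stayed at 20 °C as the control. The others were moved to preheated incubators at 30 °C (mild heat) or 40 °C (severe heat) for 1 h in the light. A difference due to temperature therefore cannot be told apart from one due to the incubator or the move. Grains of the main stem were then frozen, and RNA of whole grains from 3 plants per temperature was sequenced, giving 9 samples. In RNA of whole grains, fewer cells of a type and less RNA per cell cannot be told apart. The plants are called independent in the study's methods, so the spread between replicates is a spread between plants.

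The total expected count per sample was between 15778561 and 19497182, and the 6 copies were measured deeply within it. Their main transcripts had between 1247 and 9215 estimated fragments in a sample, which gives a counting error of 1.04% to 2.83% in a single sample, against a spread between plants of 4.15% to 17.1% in FPKM (fragments scaled to transcript length and library depth). The third plant at 40 °C stood apart from the others of that temperature. Its 100 most abundant transcripts took 38.6% of the fragments, against 30.2% and 30.3% in the other plants at 40 °C, 31.0% to 35.3% at 30 °C and 37.0% to 41.6% in the controls, so on this measure it lay within the range of the controls. Its TMM factor (edgeR's correction for such differences in composition) was 0.833, against 0.975 to 1.08 in the other 8 libraries. All 6 copies had their highest FPKM among the 40 °C plants in this plant. Values without this library are given below beside the levels at 40 °C.

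Both enzymes were well expressed in the control grain, and SSIIa mRNA was the more abundant. FPKM takes transcript length into account, so its values can be compared between genes. Summed over the 3 copies, SSIIa stood at 484 ± 26.2 FPKM (SD, n = 3) at 20 °C and SSI at 181 ± 15.4 FPKM (SD, n = 3). Over all samples the main transcripts of SSIIa ranked between 352 and 1755 among the 133744 transcripts by FPKM, and those of SSI between 899 and 3469.

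The order of the copies at 20 °C was SSIIa-7B, SSIIa-7D, SSIIa-7A, SSI-7B, SSI-7D and SSI-7A. SSIIa-7B and SSIIa-7D were close, with 191 ± 7.92 and 184 ± 11.1 FPKM (SD, n = 3) for their main transcripts, and their plants overlapped. SSIIa-7A was lower, at 109 ± 7.94 FPKM (SD, n = 3), and did not overlap with either. Among the SSI copies, SSI-7B had 73.9 ± 5.11 FPKM (SD, n = 3) and SSI-7A 42.9 ± 4.49 FPKM (SD, n = 3). SSI-7D, at 63.3 ± 5.85 FPKM (SD, n = 3), lay below SSI-7B, and their plants overlapped once the minor transcript of SSI-7D was added. The A copy was the lowest of its triad in every one of the 9 plants.

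Each copy was carried by 1 main transcript. SSI-7D and SSIIa-7B have a second annotated transcript. That of SSI-7D did not exceed 2.01 FPKM in any plant, and that of SSIIa-7B was listed at 0.61 FPKM in 1 control plant and at 0 in the other 8. The annotated main transcripts are between 2391 and 3027 bases long, and the shortest is that of SSIIa-7A.

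**Figure D1:**
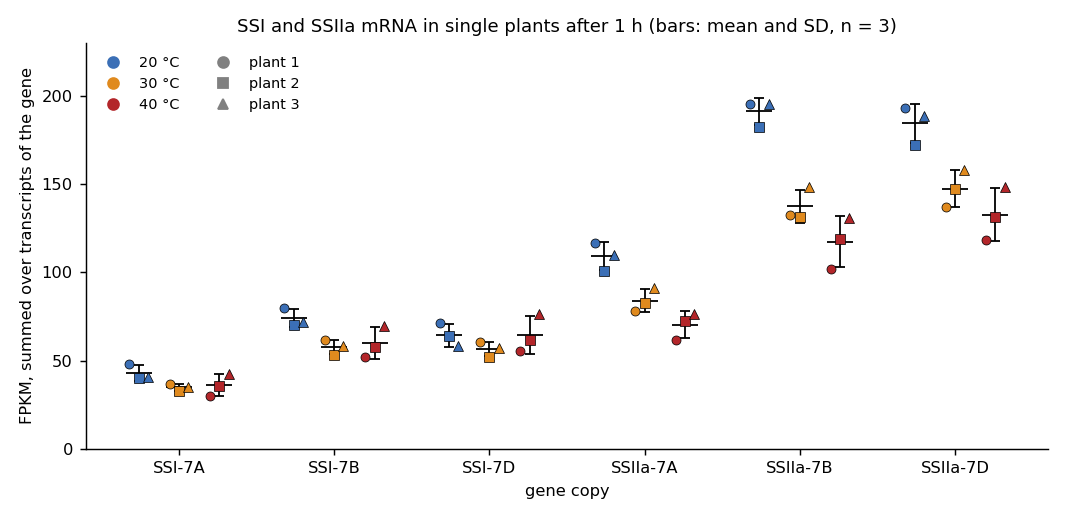
FPKM of each copy, summed over its transcripts, in each of the 9 plants on the vertical axis, with the copies along the horizontal axis; colours give the temperature, symbols the plant, and bars the mean and SD of 3 plants. Every heated plant lies below every control plant in all 3 SSIIa copies, whereas the SSI copies overlap with the controls in part, above all in the third plant at 40 °C.

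The first comparison asked how the copies responded to mild heat. After 1 h at 30 °C the FPKM of all 6 copies had a lower mean than at 20 °C, with changes of -28.2% to -20.1% for SSIIa and of -22.1% to -12.3% for SSI. Only SSIIa-7B passed the test across all transcripts. SSIIa-7B had 195, 182 and 196 FPKM in the control plants and 133, 131 and 148 FPKM at 30 °C. The heated plants lay well below the controls, and the change was -0.50 ± 0.12 on the log2 scale (SE; edgeR's quasi-likelihood test, FDR = 0.0467). A false discovery rate (FDR) under 0.05 with a lower level at 30 °C was found for 2.28% of the 45956 transcripts tested, against 1 of the 6 copies.

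The call for SSIIa-7B sat at the edge of the threshold. It was lost when any of 5 single plants was left out, with an edgeR FDR of 0.118, 0.0949 and 0.125 without control plants 1, 2 and 3 and of 0.177 and 0.124 without plants 2 and 3 at 30 °C. Without plant 1 at 30 °C the FDR was 0.049. It was also lost in a fit over all 9 samples (edgeR FDR = 0.092), with library size in place of TMM (0.0567) and without the filter on low FPKM (0.132), while the log2 change stayed between -0.54 and -0.46 over all the fits tried.

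The other SSIIa copies had nearly the same size of difference without passing the test. SSIIa-7A had 117, 101 and 110 FPKM in the controls and 78.2, 82.5 and 91.0 at 30 °C. SSIIa-7D had 193, 172 and 188 FPKM in the controls and 137, 147 and 158 at 30 °C. In both, every plant at 30 °C was below every control. Their log2 fold changes were -0.41 ± 0.12 and -0.35 ± 0.12 (SE), with an edgeR FDR of 0.0906 and 0.12. DESeq2, run as an alternative, called both, with a log2 fold change of -0.41 (DESeq2 FDR = 0.0117) and -0.36 (DESeq2 FDR = 0.0167). DESeq2 also called more transcripts overall at 30 °C. With an FDR under 0.05 and a fold change above 2 there were 2465, against 1784 in edgeR. None of the copies reached that fold change. The share of all transcripts that DESeq2 called lower at an FDR under 0.05 alone is not given here. Its calls of copies therefore cannot be set against all transcripts.

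For SSI, which starts the lengthening of the chains, the means were also lower but closer to the controls. SSI-7B had 79.8, 70.2 and 71.9 FPKM in the controls and 61.4, 53.1 and 58.4 at 30 °C, without overlap. SSI-7A had 48.0, 39.9 and 40.7 FPKM in the controls and 36.7, 32.8 and 34.8 at 30 °C, also without overlap. SSI-7D overlapped, with 69.1, 63.3 and 57.4 FPKM in the controls and 60.0, 51.0 and 57.1 at 30 °C. The log2 fold changes of SSI-7A, SSI-7B and SSI-7D were -0.33 ± 0.14, -0.39 ± 0.13 and -0.20 ± 0.14 (SE), with an edgeR FDR of 0.191, 0.125 and 0.415. DESeq2 called SSI-7B (FDR = 0.0443). In all, 5 of the 6 copies had every plant at 30 °C below every control, a pattern shared by 14.3% of all transcripts tested, and by 15.8% when each FPKM was divided by the TMM factor of its library, which left the same number of copies.

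None of the 6 copies was a differentially expressed transcript by the study's criteria (FDR under 0.05 and a fold change above 2) at 30 °C, as 3.88% of transcripts were. Ranked by log2 fold change at 30 °C, 17.0% to 24.2% of all transcripts tested lay below the SSIIa copies and 22.3% to 34.0% below the SSI copies, and the median of all transcripts was -0.0037. The minor transcript of SSI-7D, tested at 30 °C, gave -1.34 ± 1.06 (SE, edgeR FDR = 0.471), a difference within its error.

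**Figure D2:**
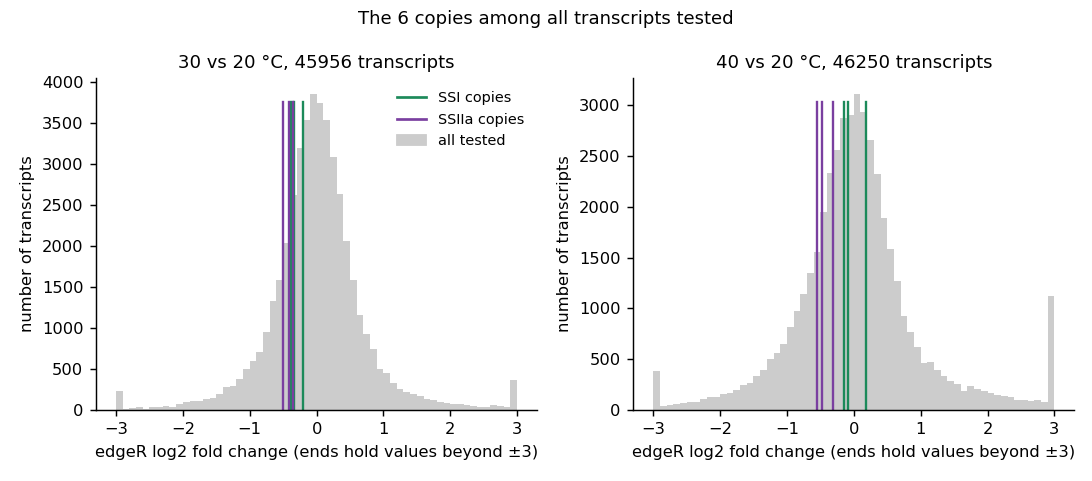
Number of transcripts (vertical axis) by edgeR log2 fold change (horizontal axis) for 30 against 20 °C and 40 against 20 °C, in grey for all transcripts tested, with lines at the 6 copies. At 30 °C all 6 lines lie left of 0, between -0.50 and -0.20, and at 40 °C the SSIIa lines stay on the left while the SSI lines surround 0.

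The second comparison asked the same of severe heat. After 1 h at 40 °C the mean FPKM of the SSIIa copies differed from the controls by -38.7% to -28.1%, whereas that of the SSI copies differed by -19.1% to 0.409%. No copy passed the FDR threshold in the fit of all 6 plants, and none was a differentially expressed transcript, as 12.1% of the 46250 transcripts tested were. An FDR under 0.05 with a lower level at 40 °C was found for 7.69% of all transcripts.

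SSIIa-7B had 102, 119 and 131 FPKM at 40 °C, SSIIa-7A had 61.7, 72.4 and 76.5, and SSIIa-7D had 118, 131 and 148. All 3 copies were below every control in every plant. This pattern held for 26.0% of all transcripts. With each FPKM divided by its library's TMM factor it held for SSIIa-7A and SSIIa-7B but not for SSIIa-7D, for which the third plant at 40 °C then stood at 178 against a lowest control of 169, and for 21.3% of all transcripts. The log2 fold changes of SSIIa-7A, SSIIa-7B and SSIIa-7D were -0.48 ± 0.17, -0.54 ± 0.18 and -0.32 ± 0.18 (SE), with an edgeR FDR of 0.099, 0.0796 and 0.265.

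The outcome at 40 °C depended on the third plant. Without it, all 3 SSIIa copies were lower at 40 °C, with log2 fold changes of -0.65, -0.74 and -0.52 for SSIIa-7A, SSIIa-7B and SSIIa-7D (edgeR FDR = 0.0278, 0.0153 and 0.0446). In that fit 8.07% of all transcripts were lower at an FDR under 0.05. The same copies passed when libraries were scaled by their totals alone (edgeR FDR = 0.0177, 0.0125 and 0.0499), a scaling that lowered the median of all transcripts by 0.14 on the log2 scale relative to TMM and called 11.0% of all transcripts lower. Measured against that shifted median, the SSIIa differences were close to those of the TMM fit. SSIIa-7A and SSIIa-7B also passed in the fit over all 9 samples and in DESeq2, with an FDR between 0.012 and 0.0433. These fits found 5860 and 5986 transcripts differentially expressed by the study's criteria, against 5583 in the reported fit. Those criteria include a fold change above 2, which no copy reached. For these fits the share of all transcripts lower at an FDR under 0.05 alone is not given here, so the calls lack a matching comparison.

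The SSI copies overlapped with the controls at 40 °C, except SSI-7B. SSI-7B had 51.9, 57.8 and 69.8 FPKM, with its highest plant just under the lowest control (70.2), and overlapped once divided by the TMM factor. SSI-7A had 30.0, 35.8 and 42.3 FPKM, and SSI-7D had 55.0, 61.0 and 75.9 FPKM, of which the third plant was above every control. Their log2 fold changes were -0.09 ± 0.21 for SSI-7A, -0.14 ± 0.20 for SSI-7B and 0.18 ± 0.21 for SSI-7D (SE; edgeR FDR between 0.592 and 0.791). Without the third plant at 40 °C these values were -0.34, -0.39 and -0.083 for SSI-7A, SSI-7B and SSI-7D (edgeR FDR = 0.188, 0.103 and 0.724), so those of SSI-7A and SSI-7B were then close to their values at 30 °C. SSI-7A also changed sign, to 0.031 without control plant 1 and 0.037 without plant 1 at 40 °C.

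**Figure D3:**
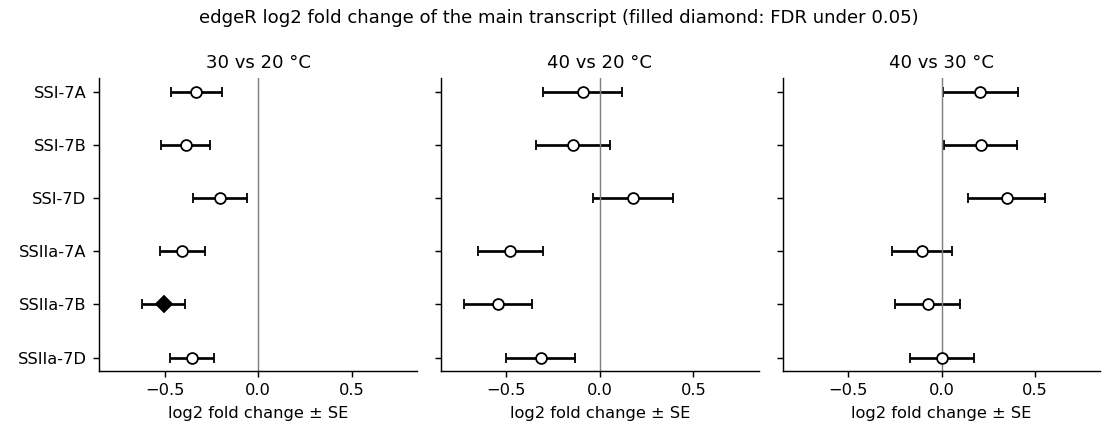
edgeR log2 fold change of the main transcript of each copy (horizontal axis, bars: approximate SE) in the 3 comparisons, with the copies down the vertical axis. SSIIa-7B at 30 °C, at -0.50, is the single filled diamond, which marks an FDR under 0.05.

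The third comparison set severe against mild heat. No copy passed the FDR threshold between 40 and 30 °C in edgeR's test, with an FDR of 0.396 to 0.994, and none had an unadjusted p under 0.05. In DESeq2 and in the other edgeR fits no copy was called either. Among the 44638 transcripts tested, 0.936% were lower at 40 than at 30 °C at an FDR under 0.05, and 3.56% were differentially expressed by the study's criteria. The SSI copies were at 0.21 to 0.35 on the log2 scale and the SSIIa copies at -0.10 to 0.00. Without the third plant at 40 °C, SSI-7A, SSI-7B and SSI-7D were at -0.016, -0.0071 and 0.11 and SSIIa-7A, SSIIa-7B and SSIIa-7D at -0.25, -0.25 and -0.17, so the higher SSI values rested on that library. By FPKM, SSIIa-7A and SSIIa-7B had all plants at 40 °C below all plants at 30 °C, as had 18.1% of transcripts, and no copy did after division by the TMM factor (12.1% of transcripts).

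The levels of different libraries depend on how the libraries are scaled, but a ratio of genes within a plant does not. The SSIIa to SSI ratio, the FPKM summed over the SSIIa copies divided by that over the SSI copies of the same plant, was therefore compared. In the controls it was 2.54, 2.62 and 2.89. At 30 °C it was 2.20, 2.62 and 2.64, overlapping with the controls, and at 40 °C it was 2.05, 2.08 and 1.89, below every plant of the other temperatures.

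The mean ratio went from 2.68 ± 0.19 at 20 °C to 2.48 ± 0.25 at 30 °C and 2.0 ± 0.10 at 40 °C (SD, n = 3). On the log2 scale the difference was -0.42 between 40 and 20 °C. The ratio differed between the temperatures (exact permutation test over the 1680 arrangements of the 9 plants, p = 0.0179). The statistic of this test was the between-group sum of squares, which for 3 against 3 plants amounts to a two-sided test. The 3 against 3 comparisons gave an exact p of 0.1 for 40 against 20 °C and for 40 against 30 °C, the smallest p that 3 plants against 3 allow, and of 0.5 for 30 against 20 °C. Leaving out any 1 of the plants at 40 °C raised the exact p over the temperatures to 0.0536, so the call was lost. The log2 difference was then -0.45 to -0.38, against -0.42 with all plants. Leaving out any 1 plant at 20 or 30 °C kept the call, with an exact p of 0.0143 to 0.0357 over the temperatures. The smallest p that this test can give, 0.00357, is the same with 1 plant left out. The third plant at 40 °C, which stood apart by composition, had the lowest ratio, and the ratio of the other 2 was also below that of every control.

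**Figure D4:**
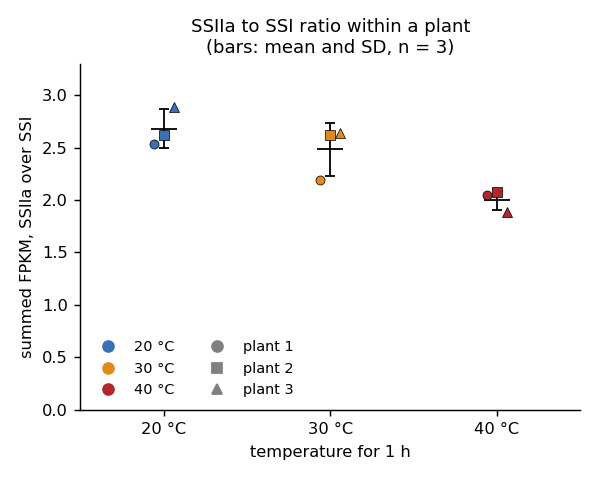
Ratio of the summed FPKM of SSIIa to that of SSI within each plant (vertical axis, starting at 0) at the 3 temperatures; bars are the mean and SD of 3 plants. The plants at 40 °C, at 1.89 to 2.08, lie below all others, and those at 20 and 30 °C overlap.

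The last comparison asked whether the homoeologs of a triad kept their proportions. In both triads the share of the D copy was higher and that of the B copy lower at the hotter temperatures, while the share of the A copy moved little. The share of a copy is its percentage of the FPKM summed over its triad in 1 plant, so it too does not depend on the scaling of libraries. The 3 shares of a triad sum to 100%, so a higher D share and a lower B share are not separate results.

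In the SSI triad, SSI-7D made up 35.8%, 36.7% and 34.1% in the control plants, 38.0%, 37.8% and 38.0% at 30 °C, and 40.5%, 39.8% and 40.6% at 40 °C. No plant overlapped with a plant of another temperature. The mean rose from 35.5% ± 1.31 to 37.9% ± 0.15 and 40.3% ± 0.45 (SD, n = 3; exact permutation test over the temperatures, p = 0.00357, the smallest it can give). SSI-7B mirrored this, with 40.1%, 40.4% and 42.1% at 20 °C, 38.8%, 38.5% and 38.9% at 30 °C, and 37.7%, 37.2% and 37.0% at 40 °C. Its mean fell from 40.8% ± 1.09 to 38.7% ± 0.20 and 37.3% ± 0.38 (SD, n = 3; exact permutation test, p = 0.00357). SSI-7A had means of 23.6%, 23.4% and 22.4% at 20, 30 and 40 °C (exact permutation test, p = 0.0857). Its p was 0.0286 without the second control plant and 0.0429 without the second plant at 40 °C, by the same exact test.

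In the SSIIa triad, SSIIa-7D made up 38.2%, 37.8% and 38.2% in the control plants, 39.4%, 40.8% and 39.8% at 30 °C, and 41.9%, 40.8% and 41.7% at 40 °C. All heated plants were above all controls, and the temperatures of 30 and 40 °C overlapped slightly. The mean rose from 38.0% ± 0.24 to 40.0% ± 0.72 and 41.4% ± 0.59 (SD, n = 3; exact permutation test, p = 0.00714). SSIIa-7B had 38.7%, 40.1% and 39.6% at 20 °C, 38.1%, 36.4% and 37.3% at 30 °C, and 36.2%, 36.8% and 36.8% at 40 °C, with all heated plants below all controls. Its mean fell from 39.5% ± 0.70 to 37.3% ± 0.89 and 36.6% ± 0.34 (SD, n = 3; exact permutation test, p = 0.0107). SSIIa-7A had means of 22.5%, 22.8% and 22.0% at 20, 30 and 40 °C (exact permutation test, p = 0.136).

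The order of the leading copies changed with these shares. SSI-7D stood at 87.0% ± 5.29 of SSI-7B at 20 °C, 98.0% ± 0.26 at 30 °C and 108% ± 1.56 at 40 °C (SD, n = 3), and it was above SSI-7B in 0 of 3, 0 of 3 and 3 of 3 plants. SSIIa-7D stood at 96.4% ± 2.23, 107% ± 4.49 and 113% ± 2.42 of SSIIa-7B (SD, n = 3), and was above it in 0 of 3, 3 of 3 and 3 of 3 plants. D therefore became the leading copy at 40 °C in the SSI triad and already at 30 °C in the SSIIa triad.

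**Figure D5:**
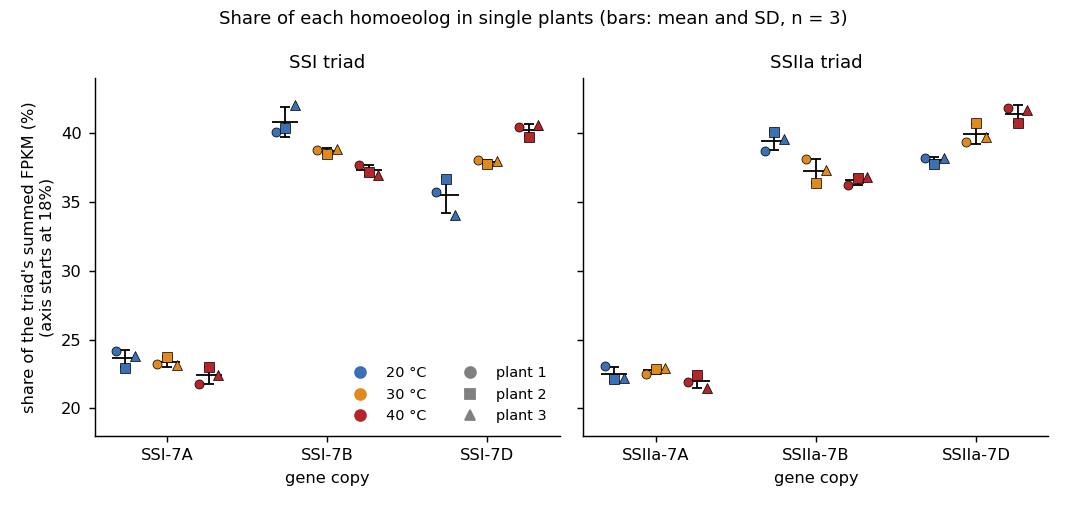
Share of each homoeolog in the summed FPKM of its triad (vertical axis, in percent, starting at 18%) in each plant, by copy and temperature; bars are the mean and SD of 3 plants. SSI-7D goes from 34.1-36.7% in the controls to 39.8-40.6% at 40 °C and SSIIa-7D from 37.8-38.2% to 40.8-41.9%, and the B copies go the other way.

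Between 40 and 20 °C the shares of the B and D copies differed by more than the counting error of a single plant. Smaller differences, such as -0.43 percentage points for SSIIa-7A in expected counts, did not. The differences are between means of 3 plants, whereas the counting error given here is that of single plants in expected counts. Each share rests on 5705 to 8470 fragments for SSI and 12205 to 22393 for SSIIa, with 95% Wilson intervals of 0.514 to 1.27 percentage points to either side, which cover counting error only. The calls for the B and D copies of both triads were kept with TPM, with expected counts, with the main transcript alone and without any single plant, with an exact p of at most 0.0464. Between 40 and 20 °C the D share differed by 4.76 percentage points in SSI and by 3.39 in SSIIa. In all, 9 values (6 shares, the ratio and the level of each triad) were computed per plant, and their p-values are not adjusted for this number.

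The shares rest on how fragments were divided among similar copies. RSEM assigns a fragment that fits several transcripts to each in part. Of the 54 counts of the main transcripts, 53 were not whole numbers (tolerance 0.005). Among all detected transcripts, 73.1% had a count that was not whole in at least 1 sample, a share of transcripts and not of counts. How many fragments were shared among the homoeologs, and whether their division differed between temperatures, was not tested. Nor was it tested how often other triads differ by as much. Over all transcripts tested, the median log2 fold change at 40 °C was -0.0014 for the A, 0.0025 for the B and 0.0095 for the D subgenome. On chromosomes 7A, 7B and 7D it was 0.0091, 0.0076 and 0.033. At 30 °C the A, B and D medians were -0.0051, -0.0095 and 0.0061. By comparison, the log2 fold change at 40 °C of SSI-7D was above that of SSI-7B in the same fit (0.18 and -0.14), and so was that of SSIIa-7D above SSIIa-7B (-0.32 and -0.54).

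The summed count of a triad does not depend on how fragments were divided among its copies, while summed FPKM does so slightly where the copies differ in length. As CPM (counts scaled to the library total), SSIIa summed to 1293 ± 68.9, 983 ± 68.8 and 856 ± 98.8 at 20, 30 and 40 °C, and SSI to 463 ± 39.4, 381 ± 26.5 and 411 ± 66.3 (SD, n = 3). In FPKM, SSIIa summed to 505, 455 and 494 FPKM in the controls, 348, 361 and 397 at 30 °C and 282, 322 and 356 at 40 °C. All heated plants were below all controls, and the means of 368 and 320 FPKM at 30 and 40 °C differed from the control mean by -24.0% and -33.9% (exact permutation test over the temperatures, p = 0.00714). Divided by the TMM factor, the SSIIa means were 477 ± 36.1, 353 ± 14.2 and 343 ± 75.6 FPKM (SD, n = 3; same exact test, p = 0.0357). SSIIa at 40 °C then differed from 30 °C by -10.4 FPKM (exact p = 0.8), against -48.4 FPKM without the division (exact p = 0.2). SSI summed to 199, 174 and 171 FPKM in the controls, 158, 138 and 150 at 30 °C and 138, 155 and 189 at 40 °C. The plants at 30 °C were below the controls, with a mean change of -17.8%. At 40 °C the third plant lay among the controls and the others below them. The summed SSI level at 40 °C differed by -20.7 FPKM from the controls (exact permutation test over the temperatures, p = 0.186), and by -34.8 FPKM without the third plant at 40 °C (p = 0.0393 by the same exact test).

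Genes whose pattern over the 9 samples was most like that of a triad were sought among 17022 genes with a mean FPKM of at least 5. Likeness was Pearson's r of log2(FPKM + 0.1), given here as a description over plants that share their libraries and temperatures. For SSI the 5 closest genes had r between 0.948 and 0.972. The first, TraesCS1A02G327500, had 44.7 ± 5.36 FPKM at 20 °C, 35.9 ± 4.13 at 30 °C and 38.7 ± 9.41 at 40 °C (SD, n = 3). For SSIIa the 5 closest had r between 0.968 and 0.986, and in each of them all plants at 40 °C were below all controls. They were picked for likeness to SSIIa, whose summed FPKM has this pattern, so it largely follows from the choice. The first, TraesCS7A02G020400, had 8.68 ± 1.09, 5.92 ± 0.82 and 4.43 ± 0.75 FPKM at 20, 30 and 40 °C (SD, n = 3). Between the triads themselves r was 0.673. Of the 17022 genes, 573 were closer to SSI than SSIIa was, and 2329 were closer to SSIIa than SSI was.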

How the data were processed

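RNA of filling wheat grains from 9 plants (3 each at 20, 30 and 40 °C, groups and replicate numbers from the sample labels) was sequenced as paired ends. The authors trimmed reads with Trimmomatic (0.36), aligned them to the IWGSC 1.0 genome and quantified transcripts with RSEM (1.3.0). Per transcript the authors deposited an expected count (not normalized), TPM and FPKM (scaled for length and depth), and the percent of a gene's expression that each isoform makes up, which was read but not tested. The submitters' notes also name edgeR 3.24.3.

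Here expected counts were rounded, a transcript was tested if its mean FPKM passed 1 at one of the compared temperatures, and edgeR (4.0.16, with limma 3.58.1 in R 4.3.3) fitted the 6 samples of a comparison by quasi-likelihood, with TMM factors and no covariate, and Benjamini-Hochberg FDR over all of them. The approximate SE was derived from the log2 fold change and the F value, so it restates the test. The script was also run on simulated data, and the outcome is not given here or used as support. Shares, ratios and summed levels were compared by exact permutation of plants (Python 3.11.15, numpy 2.4.6, pandas 2.3.3, scipy 1.17.1). The alternatives were DESeq2 1.42.0, other scalings, filters and units, sums over genes, one fit of all samples, a replicate block and leaving out each plant. Division of FPKM by the TMM factor was added after seeing the data.

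At the smallest total, 3 fragments are 0.19 CPM. Replicates differed beyond counting noise (chi-square per degree of freedom 7.35 to 22.4), so none was counted as a repeat library. The members, lists and tests were chosen with earlier results of these data known. All transcripts of the 6 genes were to be described, with the 5 genes most like each triad, of which the first of each is named by identifier. Lists of starch pathway genes and of cell type markers were void, since the reference table used here shares 0 identifiers with the files. Sequences and coordinates of the copies were not analysed here.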

Additional observations from a re-analysis of the deposited data

How the results depend on the processing

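The number of differentially expressed transcripts at 30 °C ran from 906 to 2757 when single plants were left out, against 1784, and at 40 °C it was 3258 with FPKM above 1 required in every sample, against 5583. Of the 6 copies, the number with an FDR under 0.05 at 30 °C was 0 in a fit of all 9 samples, with library size alone and without the FPKM filter, 4 in DESeq2, and 0 to 1 without single plants, against 1. At 40 °C it was 2 in a fit of all 9 samples and in DESeq2, 3 with library size alone, 1 with FPKM above 1 in every sample, and 0 to 3 without single plants, against 0. At 40 against 30 °C it was 0 in every alternative run. For most of these fits the share of all transcripts with an FDR under 0.05 is not given here. DESeq2 found more transcripts differentially expressed than the reported fit, with 2465 against 1784 at 30 °C and 5986 against 5583 at 40 °C.

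Of 252 recomputed log2 fold changes of the copies, 217 kept direction and side of the threshold, 8 lost the call, 14 gained one and 13 changed sign. None of those that changed sign had a call in that comparison. Without single plants, SSI-7A ran from -0.34 to 0.037 and SSI-7D from -0.083 to 0.29, and SSI-7B, which kept its sign, from -0.39 to -0.038, at 40 against 20 °C. At 40 against 30 °C the ranges were -0.016 to 0.36 for SSI-7A, -0.0071 to 0.34 for SSI-7B, 0.11 to 0.49 for SSI-7D, which kept its sign, -0.25 to 0.017 for SSIIa-7A, -0.25 to 0.054 for SSIIa-7B and -0.17 to 0.12 for SSIIa-7D. SSIIa-7D there, at 0.0036 in the reported fit, was also at -0.018 with the replicate block, -0.15 with library size alone and -0.013 with FPKM above 1 in every sample. The causes were not tested.

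The summed SSI level at 40 minus 20 °C was -34.8 (without the third plant at 40 °C) to -9.25 FPKM without single plants, the SSI-7A share -1.56 to -0.909 percentage points, and the log2 SSIIa to SSI ratio -0.46 to -0.36. The shares of the B and D copies kept their calls, and that of SSIIa-7A, which had none, ran from -0.767 to -0.216 percentage points. Divided by the TMM factor, the summed levels differed by -6.41 FPKM for SSI and -135 for SSIIa. Of the 5 genes most like SSI, 2 remained by Spearman's rho, and of those most like SSIIa 1 remained by rho and 3 with a mean FPKM of at least 1.

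The labels do not say whether replicate numbers pair the plants. Deviations of same-numbered plants correlated at 0.235, 0.0922 and 0.0583 for 30 against 20 °C and at -0.0749, 0.156 and -0.123 for 40 against 20 °C. For 40 against 30 °C they correlated at -0.0278, 0.127 and -0.217. Plants with different numbers were not compared, so these values cannot decide whether the numbers pair the plants. With the replicate block, 1946, 4406 and 1061 transcripts were differentially expressed at 30 against 20, 40 against 20 and 40 against 30 °C, against 1784, 5583 and 1587 without it.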
